A study of Mus musculus with 2 samples.

Results

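The 7 genes described here restrain the kinase complex mTORC1, and their RNA was compared in Lamtor1-deficient (KO) and wild-type (WT) mouse CD4+ T cells: the sestrin genes Sesn1, Sesn2 and Sesn3, the gene Ddit4, and the GATOR1 subunit genes Nprl2, Nprl3 and Depdc5. They were chosen by name, and every probe carrying one of those names, a synonym or the matching transcript was taken. All 7 were on the array, with 11 probes among 39429, and all 7 had a probe that passed the filter on dim signals, as did 14879 genes or transcripts in all. The array lists Nprl2 under its older name Tusc4 and Nprl3 under Mare.

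KO and WT RNA were hybridised together on 2 arrays, labelled with Cy5 (KO) and Cy3 (WT) on the first and the other way round on the second. The labels give both arrays the same biological replicate number, so each genotype was represented by 1 RNA extract, the arrays count as 1 replicate, and no test was made. Per the labels' protocols, both groups were naive CD4+CD62L+ cells of C57BL/6J spleens, purified magnetically and kept for 5 days with antibodies to CD3 and CD28, the cytokines IL-2 (50 ng/ml) and human recombinant TGFβ (1 ng/ml). Since the extraction protocol mentions naive cells, the labels do not settle whether the RNA is from before or after this culture; after is assumed. Which cells lost Lamtor1, by which Cre or allele, and the age of the mice are not given in the sources used here.

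mTORC1 promotes growth and metabolic activity and works at the lysosome surface, where the Ragulator complex, which contains Lamtor1, anchors the Rag GTPases that recruit it. GATOR1 switches the Rag GTPases off when amino acids are short, and it is itself held back by the GATOR2 complex. Sestrins bind GATOR2 and free GATOR1, and Sesn2 loses this hold when it binds leucine. Ddit4, also called REDD1, restrains mTORC1 by another route, through the TSC complex and the GTPase Rheb. In activated T cells mTORC1 supports the metabolic changes that go with proliferation.

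Among these brakes Sesn2 and Ddit4 were lower in the KO extract, by 3.98-fold and 3.34-fold, and none was higher by the same rule. The rule of size, used in place of a test, asked for at least a 2-fold difference in the same direction on each array. By that rule 6.88% of all genes measured were lower in KO (1024 of 14879) and 2.46% were higher (366 of 14879), against 2 lower and 0 higher among the 7 members. With a 1.5-fold rule the members stood at the same 2 lower and 0 higher, beside 13.5% lower and 6.78% higher over all genes. The median log2 ratio of KO over WT was −0.05 over the 7 members and −0.02 over all genes. The members spread to both sides of 0.

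**Figure D1:**
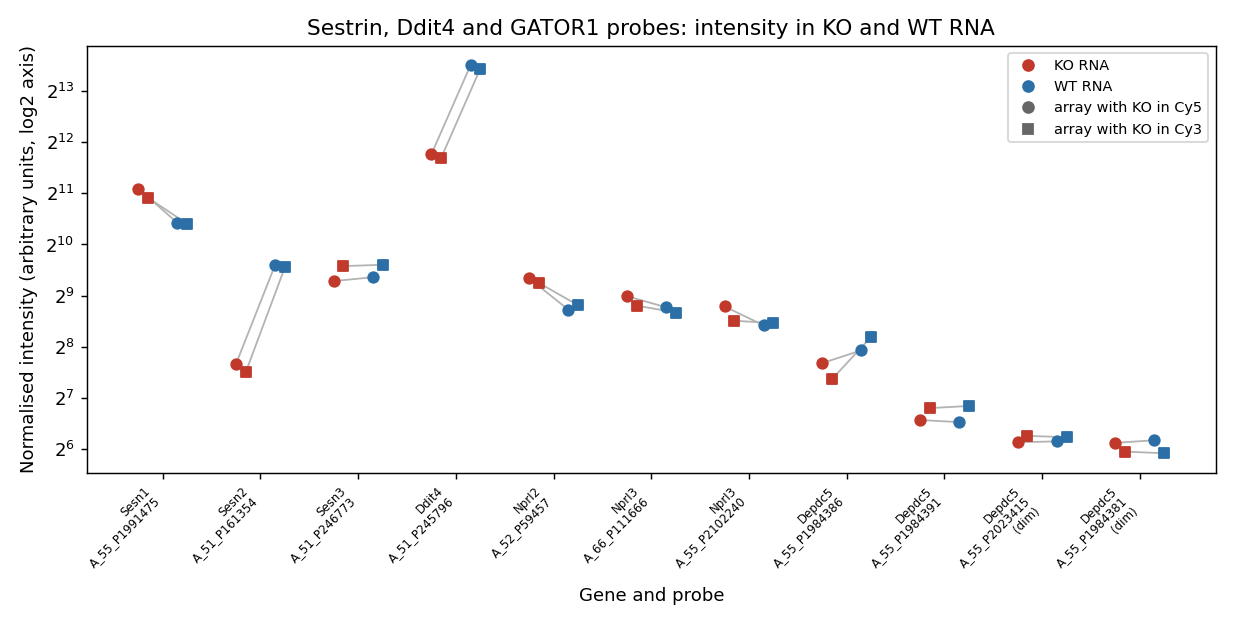
Normalised intensity (arbitrary units, log2 axis) of all 11 probes, KO RNA in red to the left of WT RNA in blue, circles for the array with KO in Cy5 and squares for the array with KO in Cy3, grey lines joining the channels of 1 array. The KO points of Sesn2 and Ddit4 lie far below their WT points on both arrays, while those of Sesn1 and Nprl2 lie above; levels of different probes cannot be set against each other.

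Of the sestrins, Sesn2, the family member known best as a leucine sensor, stood lowest. Its probe, A_51_P161354, lies at chr4:132048858-132048917 (mm9, minus strand). The first 30 of its 60 bases are shown with those of the Ddit4 probe, since the 2 called genes rest on these probes alone.
Sesn2 probe: agcccgtggtggtctccctgctgtctgaag
Ddit4 probe: tgccacctgggtcttccatctagaacctgt
Before any normalisation the Sesn2 spot had mean signals of 206.9 (Cy5) and 110.8 (Cy3) in KO RNA, against 679.1 (Cy3) and 1155.5 (Cy5) in WT RNA, over local backgrounds of 36 to 41. On each array the KO reading lay below the WT reading, whichever dye carried it. After normalisation the intensities were 202.5 and 181.3 in KO RNA, against 775.1 and 751.0 in WT RNA. The log2 ratio of KO over WT was −1.94 on the array with KO in Cy5 and −2.05 on the other, with a mean of −1.99 ± 0.08 (technical SD of the arrays). Only 185 of the 14879 genes (1.24%) had a lower ratio.

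Sesn1, a stress-induced family member with a similar role, went the other way and stayed short of the 2-fold rule. Its probe lies at chr10:41628012-41628071 (mm9, plus strand). Normalised intensities were 2186 and 1929 in KO RNA, against 1372 and 1354 in WT RNA. The log2 ratios were 0.67 and 0.51, with a mean of 0.59 ± 0.11 (1.51-fold), and 9.14% of all genes had a higher ratio. Sesn3, a sestrin known as a target of FOXO factors, differed least. It had normalised intensities of 623.0 and 763.7 in KO RNA, against 656.4 and 776.9 in WT RNA, from a probe at chr9:14130452-14130511 (mm9). Its log2 ratios of −0.08 and −0.02 averaged −0.05 ± 0.04, and the ranges of KO and WT overlapped.

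Set against each other within an array, the sestrins separated more clearly than the arrays disagreed. The log2 ratio of Sesn2 minus that of Sesn1 was −2.61 on the first array and −2.56 on the second, and this difference ran from −3.12 to −2.40 over the main setting and 11 alternatives. Sesn2 minus Sesn3 was −1.86 and −2.03. Sesn1 minus Sesn3 was 0.75 and 0.54. These differences compare log2 ratios, not levels, and carry no test. No member probe shared a run of more than 15 of its 60 bases with a probe of another gene on the array; whole transcripts were not searched.

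Ddit4 is the brake that acts through TSC. Its probe, A_51_P245796, lies at chr10:59412486-59412545 (mm9, minus strand). Mean signals before normalisation were 4102.6 (Cy5) and 1706.2 (Cy3) in KO RNA, against 10411.8 (Cy3) and 20239.1 (Cy5) in WT RNA. Normalised intensities were 3488 and 3320 in KO RNA, against 11630 and 11100 in WT RNA. Both log2 ratios were −1.74, with a technical SD of 0.00226, and 98.8% of all genes had a larger SD. That closeness holds after loess; with each array only centred on its median the log2 ratios were −1.50 and −3.20. Ddit4 was thus 3.34-fold lower in KO, and 2.47% of all genes had a lower ratio. The log2 ratio of Sesn2 minus that of Ddit4 was −0.20 and −0.31, a difference that ran from −0.69 to −0.02 over the settings.

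**Figure D2:**
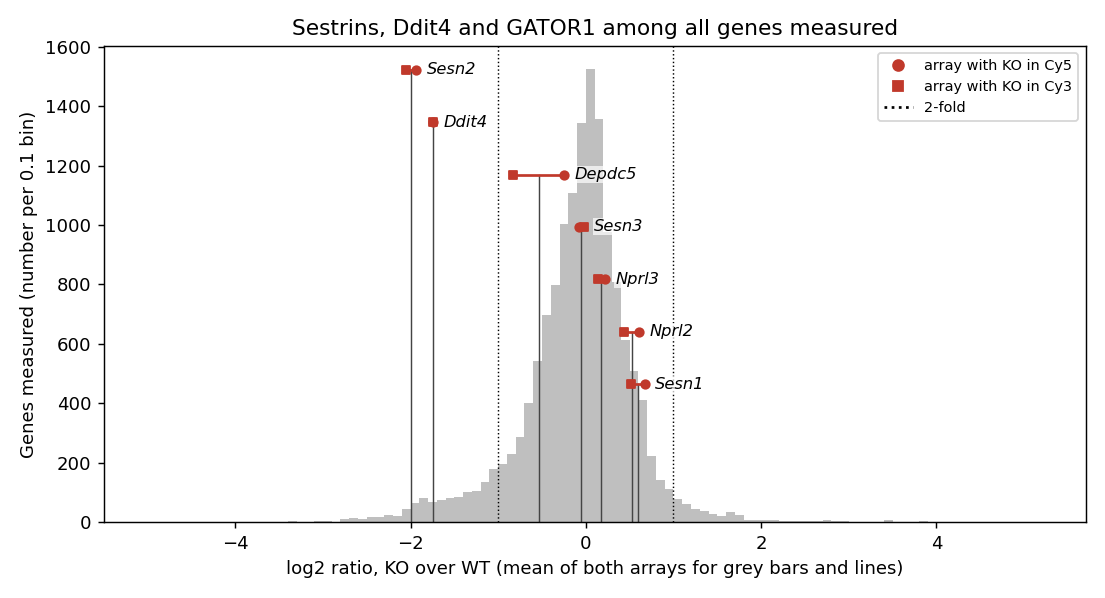
Histogram of the mean log2 ratio of KO over WT for the 14879 genes measured (number of genes per bin), with each of the 7 members at its mean (vertical line) and its value on each array (circle, KO in Cy5; square, KO in Cy3); dotted lines mark 2-fold. Sesn2 (−1.99) and Ddit4 (−1.74) lie in the lower tail, and the other 5 lie within 2-fold, Depdc5 with the widest gap between arrays.

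The GATOR1 genes showed no difference of 2-fold on both arrays. Nprl2, the subunit that stimulates GTP hydrolysis by the Rag GTPases, had normalised intensities of 646.2 and 607.9 in KO RNA, against 423.4 and 449.1 in WT RNA. Its log2 ratios were 0.61 and 0.44, with a mean of 0.52 ± 0.12 (1.44-fold), near the value of Sesn1. The probe lies at chr9:107447597-107447656 (mm9). Nprl3, its partner subunit, has 2 probes whose targets at chr11:32132881-32132940 and chr11:32132966-32133025 (mm9, minus strand) do not overlap and lie next to each other. The brighter probe, A_66_P111666, gave 507.9 and 446.7 in KO RNA, against 437.0 and 406.8 in WT RNA. Its log2 ratios of 0.22 and 0.14 averaged 0.18 ± 0.06, and those of the second probe were 0.37 and 0.05, with a mean of 0.21 ± 0.23. The second probe, A_55_P2102240, gave 441.4 and 363.9 in KO RNA, against 341.9 and 352.3 in WT RNA. In both probes the KO value lay above the WT value on each array, by a small margin. The mean log2 ratio of the second probe was smaller than its technical SD, while that of the brighter probe was larger than its own.

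Depdc5, the subunit through which GATOR1 contacts the Rag GTPases, was the least settled of the 7. There were 4 probes for it on chromosome 5, and only 2 were well above background. The first 30 bases of these are shown because the 2 probes disagreed.
Depdc5 probe A_55_P1984386: ccattagggtccttttccttcaccagcagt
Depdc5 probe A_55_P1984391: cgtcggctatggtttacatatttattcaga
The brighter, at chr5:33334150-33334209 (mm9) and assigned by the file to transcript variant 1, had normalised intensities of 204.8 and 164.7 in KO RNA, against 243.5 and 292.1 in WT RNA. The log2 ratios of −0.25 and −0.83 differed more between the arrays than in nearly all genes, and 2.34% of all genes had a larger SD. Their mean was −0.54 ± 0.41. The other, at chr5:33236040-33236099, gave 94.65 and 111.2 in KO RNA, against 91.95 and 114.5 in WT RNA, and log2 ratios of 0.04 and −0.04. The remaining pair, at chr5:33298538-33298597 and chr5:33298890-33298949, were not well above background in either RNA on either array, and no ratio is read from them. With the median over both passing probes Depdc5 stood at −0.27. The 3 subunits of the complex were thus at 0.52, 0.18 and −0.54, and the log2 ratio of Nprl2 minus that of Nprl3 was 0.39 and 0.30.

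The members' order depended little on processing, but their sign relative to 0 did in part. In each of 12 settings, single arrays included, Sesn2 and Ddit4 were lowest of the 7 and called lower, and Depdc5 came next, always below 0. With each array centred on its median in place of loess, which leaves dye trends across intensity in the data, Sesn2 had log2 ratios of −1.75 and −2.99 and, like Ddit4, was lower on both arrays. The same setting gave Sesn1 0.84 with KO in Cy5 but −0.79 with KO in Cy3, Nprl2 0.79 but −0.62, Nprl3 0.40 but −0.86, and Sesn3 0.10 but −1.19. Without loess, then, the direction of these 4 genes followed the dye, while that of Sesn2 and Ddit4 did not. Median centring also moved the median of all genes to −0.38; relative to that, Sesn1 averaged 0.41, Nprl2 0.46, Nprl3 0.15, Sesn3 −0.17, Depdc5 −0.42, Ddit4 −1.98 and Sesn2 −1.996. It gave 111 genes higher and 881 lower over the array, against 366 and 1024 with loess.

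**Figure D3:**
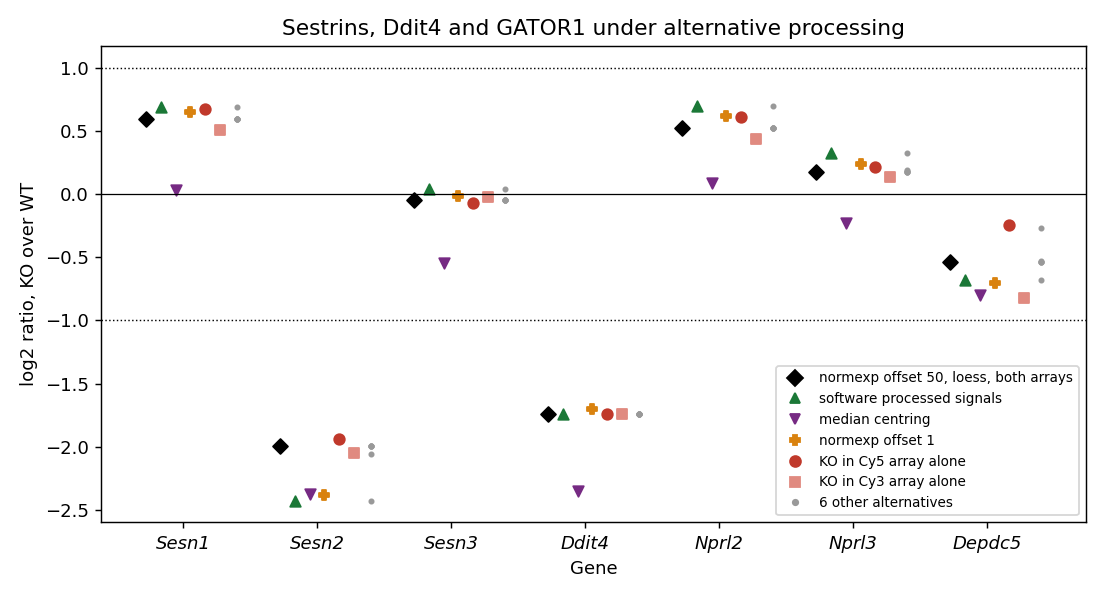
log2 ratio of KO over WT of each of the 7 genes under the main setting (black diamonds) and 11 alternatives, 5 of them with their own marker and 6 in grey; dotted lines mark 2-fold. Sesn2 and Ddit4 lie below −1 under every setting shown, Sesn1 and Nprl2 stay between 0 and 1, and Nprl3 and Sesn3 cross 0.

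None of the measured partners of these genes in the same pathway was called by the rule. Over all genes 6.88% were lower and 2.46% higher, and counts of 0 in lists this short lie near those shares. None of 5 measured GATOR2 genes, the complex that sestrins bind, was 2-fold apart on both arrays (range −0.37 for Wdr59 to 0.18 for Sec13; median −0.09). Of KICSTOR, which anchors GATOR1 at the lysosome, and of the arginine and S-adenosylmethionine sensors, 6 of 7 genes were measured and 0 called; Kptn stood at −0.59 and the arginine sensor gene Castor1 at −0.54. Downstream of Ddit4, 4 of 5 genes of the TSC complex and Rheb were measured and 0 called, with Tsc1, a TSC subunit, at 0.66 ± 0.20 and Rheb at −0.07 ± 0.44. Tsc2 was not measured. Of 9 further inhibitors of the pathway 7 were measured and 0 called; the AMP kinase subunit genes Prkaa1 and Prkag1 stood at −0.27 and 0.42. Ddit4l, the paralog of Ddit4, was not well above background. The median of this last list was 0.15, and it turned to −0.25 under median centring (0.13 above all genes there).

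Sesn2 and Ddit4 are known as targets of several stress-responsive factors, and the other known targets of these factors were counted with the members left out. Of 26 measured targets of Atf4, the factor of the amino acid response, 20 were lower and 0 higher (median −1.61; −2.53 with 23 lower in the software's own ratios, and −2.15 at an offset of 1), led by Asns, which makes asparagine, at −5.14. The next were the transcription factor gene Atf5 (−3.03), Trib3 (−3.03), which encodes a pseudokinase, and Psat1 (−2.93), of the serine pathway. The Atf4 gene had ratios of −0.90 and −1.47 and was not called. Of 14 targets of HIF, the hypoxia factor that also induces Ddit4, 8 were lower and 1 higher (median −1.22); the prolyl hydroxylase gene Egln3 stood at −2.92, Bnip3 at −2.51, Ankrd37 at −2.10 and P4ha2 at −2.04, and Bhlhe40 was higher at 1.57, a call absent under median centring. Hif1a was lower at −1.22 ± 0.22. These counts compare with 6.88% lower and 2.46% higher over all genes.

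Targets of p53, which induces Sesn1 and Sesn2, were lower in part. Of 18 measured p53 targets 11 were lower and 0 higher (median −1.23), among them Phlda3 at −2.75, the cell cycle inhibitor gene Cdkn1a at −2.72, the pro-apoptotic gene Bbc3 at −2.05 and Zmat3 at −2.04, and Trp53 itself averaged 0.05 ± 0.25. Sesn1, a well-known p53 target, stood at 0.59, and at 0.03 under median centring, where its sign differed between the arrays. Its regulation by p53 was not tested. FOXO factors induce Sesn3 and Sesn1. Of 19 measured FOXO targets 6 were higher and 1 lower (median 0.59): Btg1, an inhibitor of proliferation, at 1.93, Bcl6, a transcriptional repressor, at 1.89, Pik3ip1, an inhibitor of PI3 kinase, at 1.51, and Pink1, a mitophagy kinase, at 1.32, against the IL-7 receptor gene Il7r at −1.02. Under median centring 0 were called in either direction and the median was 0.15, or 0.53 relative to all genes. Over all genes 111 were higher and 881 lower there, against 366 and 1024 with loess. Foxo1, itself counted among the 19 measured targets, stood at 0.72 ± 0.18 and was not called. Foxo3, also on that list, was not measured. Glucocorticoids also induce Ddit4; of 7 measured targets Tgm2 (−2.71) and Fkbp5 (−1.05) were lower and 0 higher, with 1 lower under median centring, and their receptor gene Nr3c1 stood at 0.03. Beside the counts of these 3 lists, the shares over all genes with loess were 6.88% lower and 2.46% higher. The lists were chosen with results of these data known, and their counts say nothing of which factor acts on a member.

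**Figure D4:**
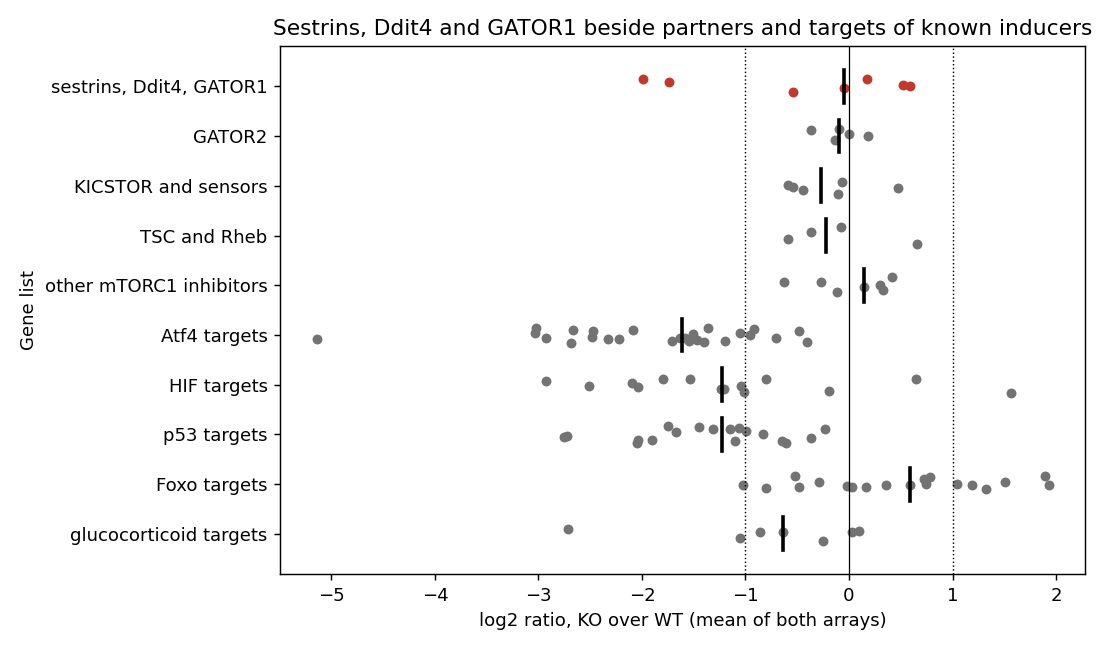
log2 ratio of KO over WT (mean of both arrays) of the 7 members (red, top row) and of the measured genes of 9 lists (grey, members left out), 1 point a gene, black bars for medians, dotted lines for 2-fold. The partner lists (GATOR2, KICSTOR and sensors, TSC and Rheb, other inhibitors) stay within 2-fold, while Atf4, HIF and p53 targets have medians of −1.61, −1.22 and −1.23.

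By closeness of the log2 ratios on the 2 arrays, the genes most like Sesn2 were Nek2, a mitotic kinase gene (−1.99), the histone gene H2ac10 (−1.98) and Abhd4 (−2.02), and 98 genes lay within 0.2 of it. Nearest to Ddit4 were a pair of probes with no gene symbol and Aldoa, a glycolytic aldolase gene (−1.75), and 165 genes lay within 0.2. This likeness rests on 2 arrays of 1 contrast.

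The promoters of Sesn2 and Ddit4, as windows of 300 bases of which the last 50 follow the start, are shown because both genes were lower. The sequences are RefSeq's, in build GRCm38.p6, at chr4:132510407-132510706 and chr10:59951721-59952020, both on the minus strand and read 5′ to 3′. Capitals mark ATTGG, which is CCAAT on the other strand, and in Ddit4 also ACGTG and GCGTG, the letters at the core of hypoxia response elements.
Sesn2 promoter: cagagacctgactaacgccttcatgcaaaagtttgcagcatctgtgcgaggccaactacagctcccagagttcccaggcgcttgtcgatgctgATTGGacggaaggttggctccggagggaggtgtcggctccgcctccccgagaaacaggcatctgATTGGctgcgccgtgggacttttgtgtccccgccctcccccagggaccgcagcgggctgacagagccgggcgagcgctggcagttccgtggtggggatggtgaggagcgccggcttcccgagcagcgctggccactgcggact
Ddit4 promoter: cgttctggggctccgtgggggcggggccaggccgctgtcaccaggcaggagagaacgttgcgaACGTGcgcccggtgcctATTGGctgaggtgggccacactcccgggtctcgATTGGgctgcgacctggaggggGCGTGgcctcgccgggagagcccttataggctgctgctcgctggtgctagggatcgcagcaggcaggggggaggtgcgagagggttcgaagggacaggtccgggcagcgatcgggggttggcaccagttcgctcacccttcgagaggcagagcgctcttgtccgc

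Each motif was searched on both strands in 8 promoters of the 7 genes, Sesn1 having 2, and in all 32851 promoters of that table, and the marked matches do not overlap. CCAAT matched 2 times in each of the 2 promoters shown, beginning 157 and 93 bases before the Sesn2 start and 170 and 137 bases before the Ddit4 start. It also matched 4 times in Sesn3 and 1 time in each Sesn1 promoter, and in no GATOR1 promoter. Of all promoters 37.4% hold it and 11.7% hold it at least 2 times. A part of this motif in the differences was not tested. ACGTG was found in Ddit4 alone among the members (19.6% of all promoters) and GCGTG in Ddit4, Depdc5, Nprl2 and 1 Sesn1 promoter (32.4%). TGATGNAA, the core of the element that Atf4 binds, was in no member promoter (3.97% of all), nor was a p53 element core (0.712%). TGTTTAC, a forkhead core, was in 1 Sesn1 promoter (3.65%). Matches describe letters in these windows only, and elements further away were not searched.

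Lamtor1 itself was 3.86-fold lower in the KO extract (log2 ratio −1.95 ± 0.03). Whether its probe lies in the deleted part is not given. Each array had 44397 spots, 1377 of them controls, and none was saturated. With KO in Cy5, 51.7% of gene spots were well above background in KO RNA, against 48.4% in WT RNA. With KO in Cy3 the shares were 43.7% in KO RNA and 48.8% in WT RNA. The median technical SD over all genes was 0.11. All 8 T cell markers looked up were measured, 2 of them lower, Cd4 (−1.18) and Cd5 (−1.12), and 0 higher. Over all genes 6.88% were lower and 2.46% higher. Cd3d stood at −0.79 and Cd3g at −0.49, while Cd3e (0.09), Thy1 (0.09), Lat (0.05) and Cd28 (0.04) differed little. The summed normalised intensities of the 8 were 65140 to 65500 in KO RNA, against 76110 to 77320 in WT RNA. Among them Cd3d had log2 intensities of 13.3 in KO RNA and 14.1 in WT RNA, and Thy1 had 14.9 and 14.8. Of 6 markers of CD8 T and NK cells 5 were measured, with Klrc1 (1.80), Klrd1 (1.78) and Tyrobp higher, the last at least 4.30-fold because it was not well above background in WT RNA. The CD8 genes themselves were not called, with Cd8a at 0.67 and Cd8b1 at −0.55. The summed intensities of the 5 were 1837 to 1998 in KO RNA, against 745.5 to 756.5 in WT RNA, and Ncr1 was not well above background. Myeloid markers had 3 of 5 measured and 0 called (sums 8645 to 9718 in KO RNA, against 5570 to 5809 in WT RNA). These sums rest mainly on Itgam, with log2 intensities of 13.1 in KO RNA and 12.4 in WT RNA. Csf1r had 8.17 and 7.76, and Lyz2 was not well above background in WT RNA. Cd14 and Adgre1 were not well above background. B cell markers had 1 of 4 measured, Cd79b at 0.62, with Cd79a and Ms4a1 not well above background. The part of other cells in the differences of Sesn2 and Ddit4 was not tested, and in bulk RNA fewer cells of a type and less RNA per cell cannot be told apart.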

How the data were processed

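The authors deposited, for each of the 2 arrays, a scanner file from Agilent Feature Extraction, version 10.7.3.1 per the file headers and 10.5.1.1 per the submitters' processing notes. Per the file headers it gives the uncorrected intensity of each spot and of its local background, and a processed intensity, already background-subtracted and dye-normalised. The series matrix the authors deposited has log10 ratios (Cy5 over Cy3) identical to those in the scanner files (largest difference 0). Per the labels' protocols, 400 ng of each cRNA was hybridised at 65 °C for 17 h.

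From these, mean intensities were corrected with normexp (offset 50, all spots) and normalised by loess within each array, control spots at weight 0 (limma 3.58.1, R 4.3.3). Control spots and outlier spots (206 and 214) were left out, spots of a probe averaged, ratios turned to KO over WT and the arrays averaged; ± is their technical SD. The offset shrinks ratios of dim probes. Normalised intensities are from the same data after Aquantile normalisation between arrays. A gene counted as measured if a probe was well above background in the same RNA on both arrays, in at least a share of 0.5 of its spots, and its brightest probe stood for it. Names came from transcript accessions matched to RefSeq's GRCm38.p6 annotation (26055 probes), then symbols. Probe positions are the files', in mm9, for which no annotation of exons or UTRs was used. With 1 extract per genotype no p-value is given; the number of arrays limits precision. The scripts were tested on simulated arrays with known folds.

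All 7 members are named with every probe. From each list the called genes with the largest ratios are named, and in short lists any measured gene, with Lamtor1, the factors of the lists, and the 3 genes nearest each called member. The members and lists were chosen with earlier results of these data known. Python 3.11.15 and matplotlib 3.10.9 drew the plots.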

Additional observations from a re-analysis of the deposited data

How the results depend on the processing

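Alternatives to the background correction, signal, dye normalisation, filter on dim probes, outlier flags, probe choice, number of arrays and fold of the rule were run. No paired analysis was possible because each genotype gave a single extract and nothing was tested. The count of members stayed at 2 lower and 0 higher under all of them, Sesn2 and Ddit4 each time. Sesn2 stood at −2.38 with an offset of 1, at −2.43 with processed signals or the series matrix, which hold the same values, and at −2.37 under median centring. Ddit4 stood at −1.705 with an offset of 1, −1.742 without background subtraction and −2.35 under median centring. The median of the members was 0.042 with the processed signals and series matrix, and −0.54 under median centring. Over all genes, 366 higher and 1024 lower became 865 and 1613 with the processed signals and series matrix, and 1009 and 2008 at 1.5-fold. The count of higher genes was 609 with an offset of 1, 111 under median centring and 556 with KO in Cy5 alone. The cause of these shifts was not tested. Depth here is signal over background: the KO signal of Sesn2 was 110.8 over a background of 41 at its lowest.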
